A study of Homo sapiens with 4 samples.

Results

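The genes described here carry glucose from its uptake to pyruvate and lactate, with the enzymes that decide whether pyruvate enters the mitochondrion. They were chosen by name, as 36 genes in pathway order from the glucose transporters to the lactate transporters, with HIF1A as a regulator. Of these, 35 were found among the 18178 gene names of the array, on 56 of its 41000 probes, and PDHB was not analysed here. All 35 had at least 1 probe well above background on both arrays of a line and were tested, among 13830 tested genes in all.

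Gene expression was compared between the naive NB4 cell line and an arsenic trioxide (ATO) resistant line derived from it, with 2 flasks of each. NB4 is an established human line of acute promyelocytic leukemia. The resistant cells are 1 clone, raised by the laboratory of the study, which the labels call NB4-VM-AsR1 and the methods NB4-EV-AsR1. Both lines grew in RPMI with serum, and the resistant cells had been kept free of ATO for a week before RNA was taken, so neither line was under the drug. Each flask was hybridized to 1 Agilent array with a single dye. All 4 arrays lay on 1 slide, naive flasks at the first positions and resistant flasks at the last, so that position and line cannot be told apart. With 1 clone, what belongs to resistance and what belongs to that clone cannot be told apart either.

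Glycolysis starts when glucose enters through the SLC2A family of transporters and is trapped in the cell by a hexokinase. Phosphofructokinase makes the committed step, and its strongest activator is a sugar phosphate made and removed by the PFKFB enzymes. At the end of the pathway pyruvate is either turned to lactate, which leaves through SLC16A transporters, or passed to the pyruvate dehydrogenase complex, which the PDK kinases switch off. HIF-1, of which HIF1A encodes the oxygen-regulated subunit, raises the transcription of many of these genes in low oxygen.

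Levels are given as log2 processed signal minus the 75th percentile of the array, so that 0 is the 75th percentile of all probes, and differences are resistant minus naive on the same scale. A gene is called where limma gave a Benjamini-Hochberg adjusted p under 0.05 over all 28221 tested probes and the lines differed at least 2-fold. The level of one probe cannot be set against that of another. An exact permutation test of 2 flasks against 2 cannot give a p under 0.333, so calls rest on a spread shared across probes, and the p-values measure the spread between flasks. RNA came from whole flasks, and fewer cells expressing a gene cannot be told apart from less RNA per cell.

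Of the 35 tested genes, 5 were called and all 5 were lower in the resistant line. They were the glucose transporters SLC2A3 and SLC2A6, the hexokinase HK1, the muscle-type phosphofructokinase PFKM and the pyruvate dehydrogenase kinase PDK2. No member was called higher. Across all tested genes 6.29% were called, 3.34% as lower and 2.95% as higher, against 14.3% of the members. The log2 difference was below 0 for 23 members (65.7%), against 49.7% of all tested genes. Both resistant flasks lay under both naive flasks for 17 members, where the share over all genes was 29.0%, and above both for 5, where it was 28.4%. The members were chosen with earlier results of these data known, so these shares are descriptions and no test of the list. The median log2 difference of the members was -0.28, and 0.00 over all tested genes. With members whose signal was too dim or too bright in one line set to their bound, and 2 with no usable fold left out, the median was -0.31. The count of 5 was 10 without the first naive flask, 6 without the second, and 1, HK1, without either resistant flask. It was 0 after normexp background correction and 0 by the methods' t-test after adjustment, as given with the other alternatives at the end.

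**Figure D1:**
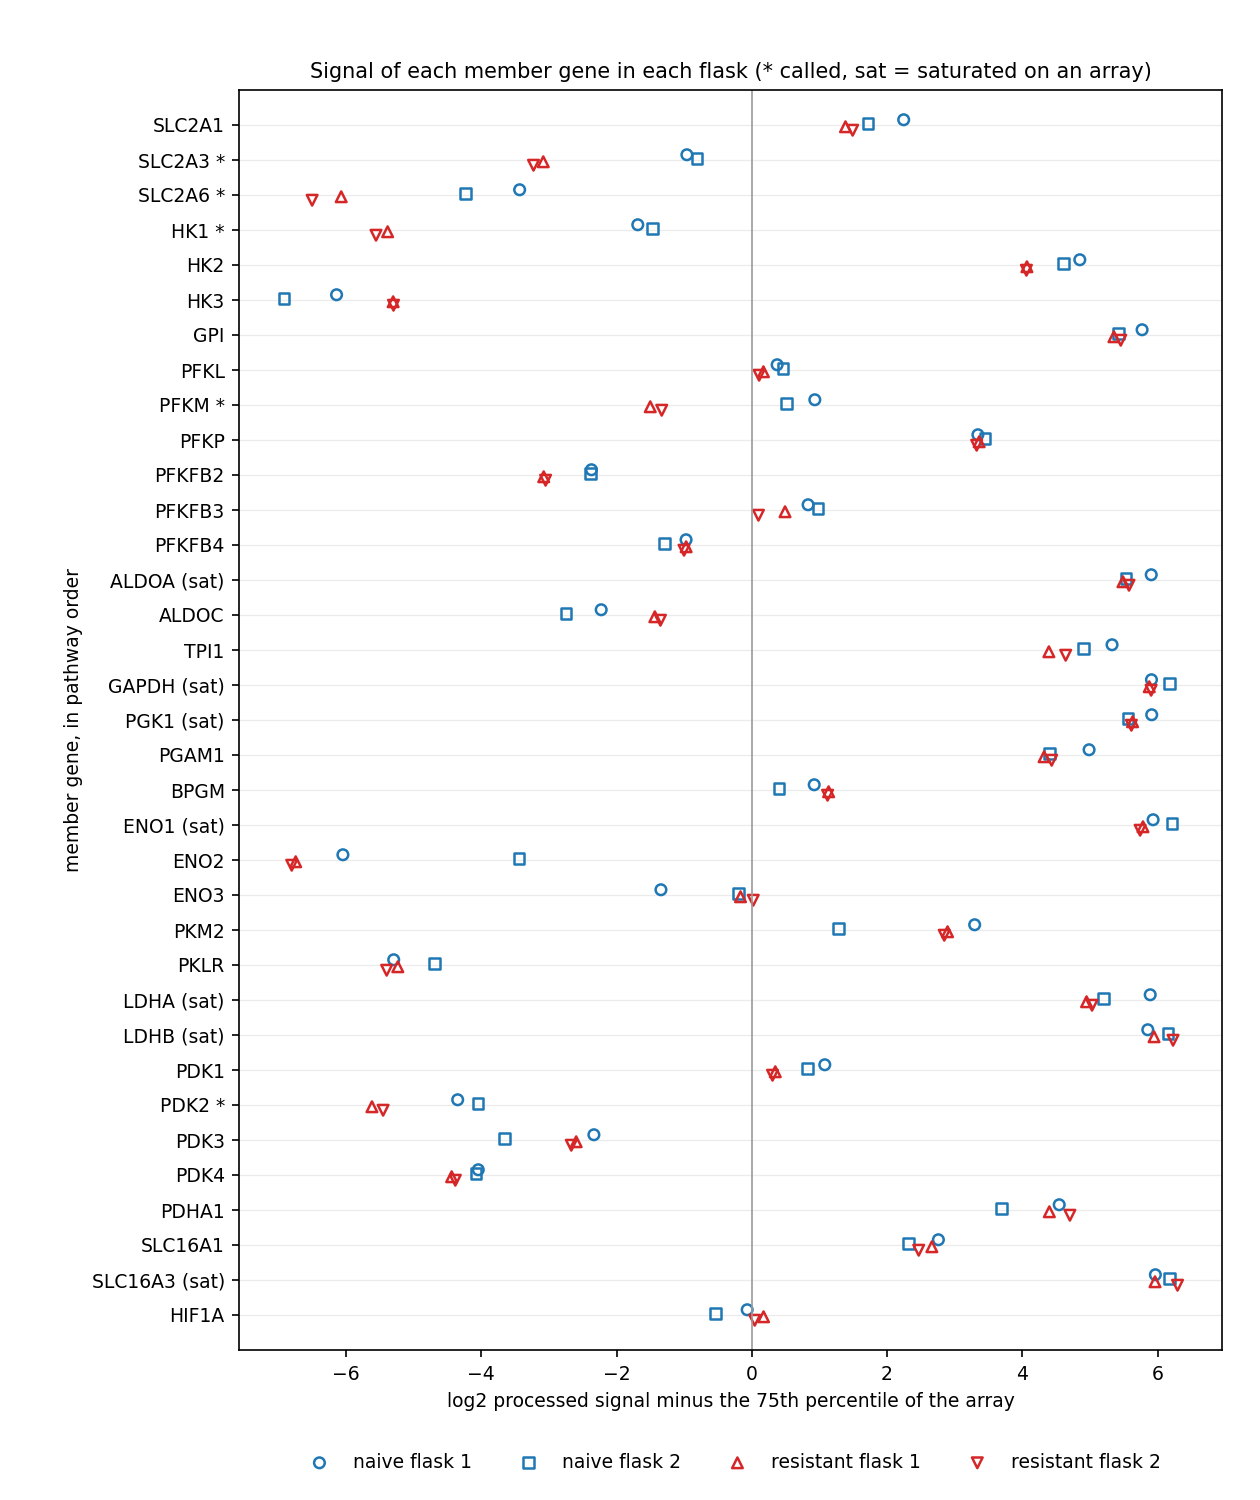
Level of each member gene in each flask, as log2 processed signal minus the 75th percentile of the array (horizontal axis), with genes in pathway order and 1 marker per flask. HK1, SLC2A3, SLC2A6, PFKM and PDK2, marked by an asterisk, have both resistant flasks (triangles) well to the left of both naive flasks. The genes marked as saturated on an array lie between 4.95 (LDHA) and 6.30 (SLC16A3).

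Glucose transporters came first and all 3 had a difference below 0. SLC2A3 encodes GLUT3, a transporter with high affinity for glucose. It measured -0.96 and -0.81 in the naive flasks and -3.08 and -3.23 in the resistant flasks. The flasks of each line lay within 0.15 of one another and the lines stood far apart. SLC2A3 fell 4.83-fold, a log2 difference of -2.27 ± 0.22 (SE, n = 2 flasks a line, limma adjusted p = 0.00622). Its second probe gave -2.79 and -3.13 against -5.25 and -5.77, a log2 difference of -2.55 ± 0.29 (adjusted p = 0.00978), and was called as well. Under normexp background correction the difference of the first probe was -1.35 and not called. That probe lies at chr12:8072924-8072983 on the minus strand of hg19.

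SLC2A6 encodes GLUT6, a transporter found mainly on lysosomal membranes. Its levels were -3.43 and -4.23 in the naive flasks and -6.07 and -6.50 in the resistant flasks. The groups did not overlap, although the naive flasks themselves differed by 0.80. The log2 difference was -2.45 ± 0.35 (SE, adjusted p = 0.0218), a 5.48-fold fall, with the probe well above background on 1 of the 2 resistant arrays. Its size depended on the background correction: it was -0.23 under normexp and -0.77 when bright local backgrounds were reset first (adjusted p = 0.0952), with no call either way. This probe is at chr9:136336875-136336934, minus strand.

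SLC2A1, which encodes GLUT1, the transporter of most proliferating cells, was not called. It measured 2.25 and 1.72 in the naive and 1.39 and 1.49 in the resistant flasks. Its log2 difference was -0.54 ± 0.27 (SE, adjusted p = 0.358).

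The 3 hexokinases did not move alike. HK1 is the widely expressed isoform that binds to mitochondria. Its levels were -1.69 and -1.47 in the naive flasks and -5.39 and -5.56 in the resistant flasks. Flasks of a line were within 0.22, and the gap between the lines was the largest among all members. HK1 fell 14.9-fold, a log2 difference of -3.89 ± 0.23 (SE, n = 2 flasks a line, adjusted p = 0.00147). Under normexp the difference was -1.42 and not called, and with bright local backgrounds reset it was -2.15 and called. The probe lies at chr10:71161158-71161217 on the plus strand. A second HK1 probe, for which the files give no position, was at background on all 4 arrays, between -8.55 and -8.33, and says nothing about the difference.

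HK2, the isoform induced by insulin and by HIF-1, had levels of 4.85 and 4.61 in the naive and 4.07 and 4.06 in the resistant flasks. Both resistant flasks were lower, and the log2 difference of -0.67 ± 0.23 (SE, adjusted p = 0.206) did not pass the test. The file places this probe at chrX:79825025-79825084, not on the gene's own chromosome 2. The other HK2 probe, which does lie on chromosome 2, gave -0.66 ± 0.24 (adjusted p = 0.228). HK3, a hexokinase of myeloid cells, was dim at -6.14 and -6.92 in the naive and -5.30 and -5.30 in the resistant flasks. Its log2 difference of 1.23 ± 0.32 was not called (adjusted p = 0.119). The second HK3 probe did not stand clear of background in naive cells and was at least 1.75-fold higher in the resistant line, with a fitted difference of 1.47 (adjusted p = 0.0649). When all probes of a gene were averaged HK3 was called, with a difference of 1.35 (adjusted p = 0.0324).

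Phosphofructokinase has 3 genes, and their products form mixed tetramers. PFKM, the muscle-type subunit, measured 0.93 and 0.51 in the naive flasks and -1.50 and -1.33 in the resistant flasks. It fell 4.41-fold, a log2 difference of -2.14 ± 0.26 (SE, adjusted p = 0.0119), by a single probe at chr12:48539724-48539783 on the plus strand. PFKL, the liver-type subunit, stood at 0.37 and 0.46 against 0.17 and 0.11, and PFKP, the platelet-type subunit, at 3.34 and 3.45 against 3.36 and 3.32. Neither was called. Their log2 differences were -0.28 ± 0.22 (adjusted p = 0.543) and -0.05 ± 0.22 (adjusted p = 0.922), the latter turning to 0.12 under scale normalization.

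Among the bifunctional enzymes that set the level of the activator of phosphofructokinase, none of 3 was called. PFKFB2 was steady within each line, at -2.37 and -2.39 in the naive and -3.08 and -3.05 in the resistant flasks. Its difference of -0.68 ± 0.22 had an adjusted p of 0.178. PFKFB3, the isoform with the highest kinase over phosphatase activity, measured 0.83 and 0.98 against 0.49 and 0.10 (difference -0.61 ± 0.25, adjusted p = 0.276). Its 4 probes ran from -0.76 to -0.02. PFKFB4 overlapped between the lines, with a difference of 0.14 ± 0.24 (adjusted p = 0.789).

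**Figure D2:**
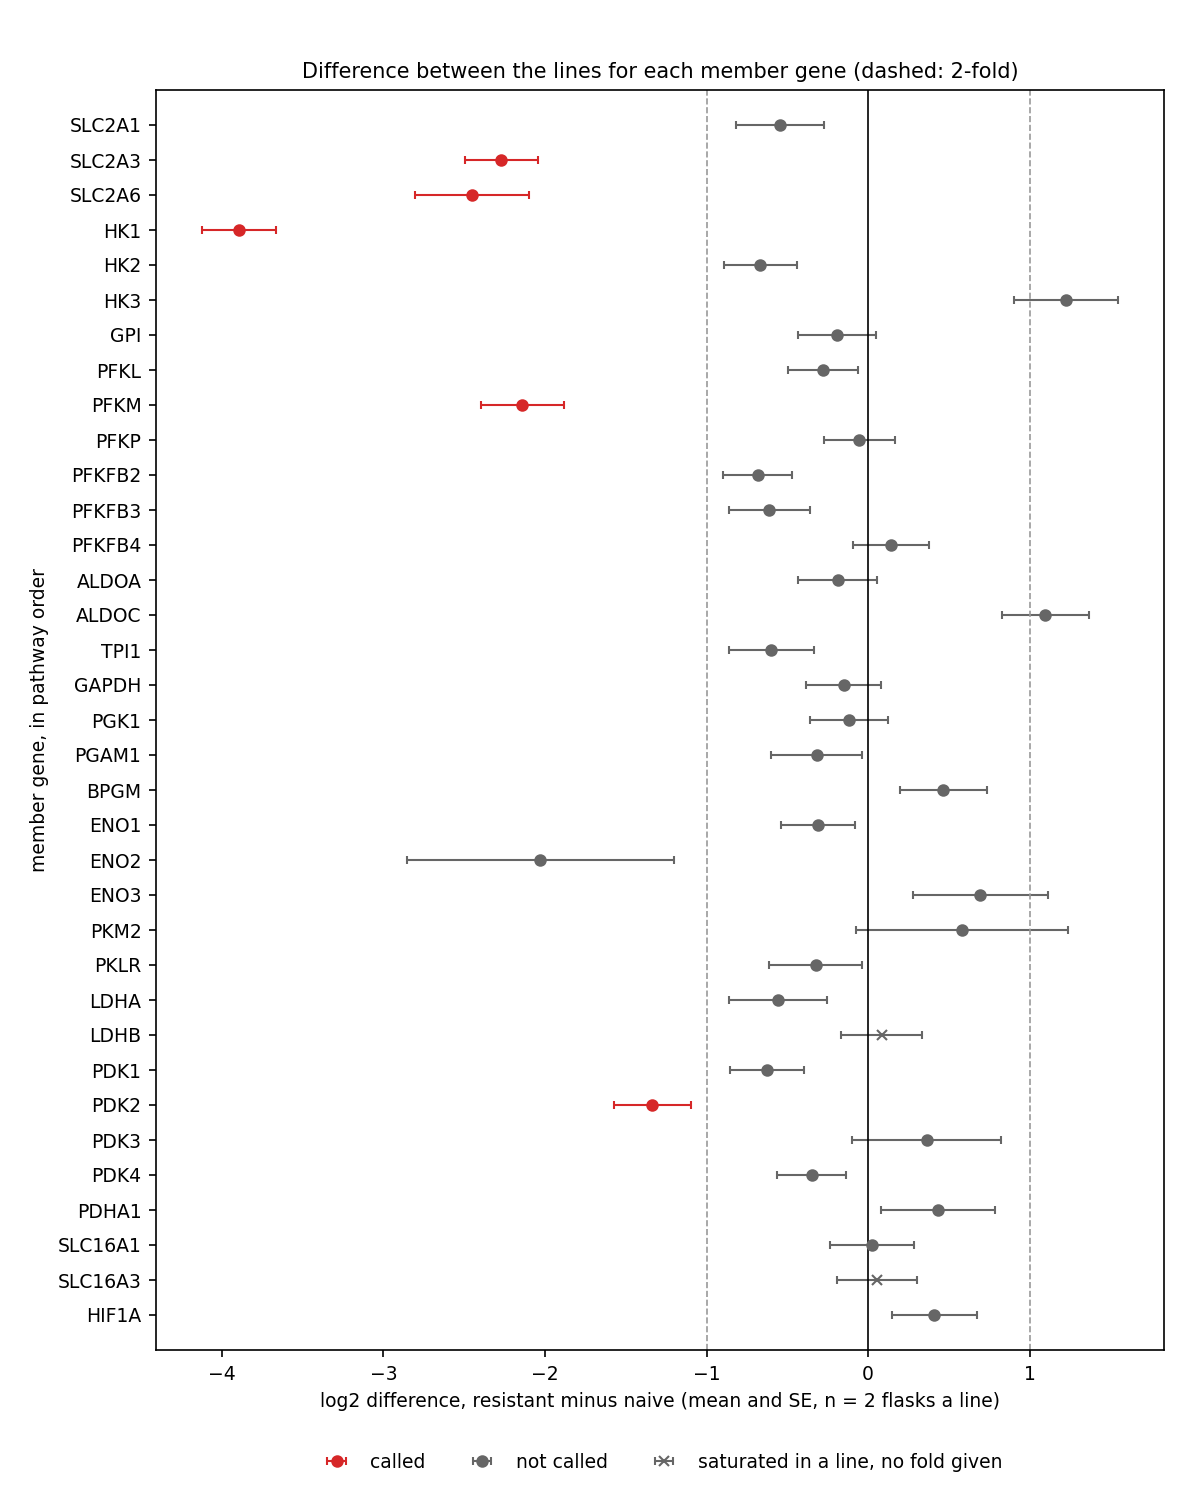
Log2 difference between the lines for each member gene, resistant minus naive (horizontal axis, mean with SE as bars, 2 flasks a line), in pathway order. The 5 called genes (red) lie between -3.89 for HK1 and -1.34 for PDK2, and crosses mark LDHB and SLC16A3, whose saturated signal gives no fold.

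The common enzymes of the pathway were bright in both lines. Members above the 75th percentile on all 4 arrays numbered 20, and 7 had their chosen probe saturated on at least 1 array, where a difference is compressed. Glucose-6-phosphate isomerase, GPI, had a log2 difference of -0.19 ± 0.24 (adjusted p = 0.714). Aldolase A, ALDOA, the main aldolase of blood cells, gave -0.19 ± 0.25 (adjusted p = 0.728) and was saturated on 1 naive array. Under scale normalization both turned, to 0.03 and 0.03. TPI1, triosephosphate isomerase, had both resistant flasks under both naive flasks, at 4.39 and 4.64 against 5.33 and 4.91, with a difference of -0.60 ± 0.26 (adjusted p = 0.303). The file puts this TPI1 probe on chromosome 1, at chr1:77166422-77166481, whereas the gene is on chromosome 12, and the TPI1 probe placed on chromosome 12 gave -0.51.

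ALDOC, the aldolase of brain, pointed the other way from the called genes. It measured -2.23 and -2.75 in the naive flasks and -1.43 and -1.35 in the resistant flasks, with no overlap. The log2 difference was 1.10 ± 0.27 (SE, adjusted p = 0.104), 2.14-fold, and was not called. Without the first naive flask it was called, at 1.36 (adjusted p = 0.00711).

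In the second part of glycolysis, where ATP is made, none of 9 genes was called. GAPDH, which oxidizes the triose phosphate, was saturated on both naive arrays at 5.91 and 6.18, against 5.88 and 5.91 in the resistant flasks. From these values it was at least 1.11-fold lower in the resistant line (adjusted p = 0.769), and scale normalization turned the difference to 0.07. PGK1, phosphoglycerate kinase, gave -0.12 ± 0.24 (adjusted p = 0.837), 0.10 under scale normalization, by a probe saturated on 1 naive array. Its 3 other probes, saturated on no array, ran from -0.58 to -0.43 and were not called. The file places the probe at -0.58 on chromosome 19 rather than X. PGAM1, phosphoglycerate mutase, gave -0.32 ± 0.28 (adjusted p = 0.594). BPGM, which makes the bisphosphoglycerate known from red cells, gave 0.47 ± 0.27 (adjusted p = 0.414).

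The enolases ENO1, ENO2 and ENO3 differed in how stable they were. ENO1, the ubiquitous form, was saturated on both naive arrays and at least 1.24-fold lower in the resistant line (adjusted p = 0.525). Its other probe, saturated on 1 naive array, read 5.91 and 5.49 against 5.01 and 4.96, a difference of -0.71 ± 0.25 (adjusted p = 0.216). ENO2, the neuronal form, was far apart in the naive flasks, at -6.05 and -3.44, and not well above background in either resistant flask, at -6.74 and -6.80. By the mean of the naive flasks ENO2 was at least 3.31-fold lower in the resistant line, with a fitted log2 difference of -2.03 ± 0.83 (SE, adjusted p = 0.275). That bound carries the spread between the naive flasks. Without the first naive flask the difference was -3.33 and called, and without the second it was -0.73 and under 2-fold. ENO3, the muscle form, had -1.34 and -0.19 against -0.17 and 0.02 by a probe the file places on chromosome 2 rather than 17 (difference 0.70 ± 0.42, adjusted p = 0.431). Without the second naive flask its difference was 1.27 (adjusted p = 0.00902).

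Pyruvate kinase closes the pathway. PKM2, the name on the array for the PKM gene, measured 3.30 in the first and 1.28 in the second flask of naive cells, against 2.89 and 2.85 in resistant cells. A second PKM2 probe followed the same order, with 2.25 and 0.04 against 1.85 and 1.38. The resistant flasks thus lay between the naive flasks by both probes, and the log2 difference was 0.58 ± 0.66 (adjusted p = 0.680). Leaving out the first naive flask gave 1.59 and a call (adjusted p = 0.00373), leaving out the second -0.43 (adjusted p = 0.181). PKLR, the liver and red cell isoform, gave -0.32 ± 0.29 (adjusted p = 0.596).

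Probes for GAPDH, PGK1, TPI1, ENO1, PGAM1, PKM2 and LDHA may also read near-identical copies of these genes elsewhere in the genome, so their values are uncertain to that extent. Of 50 member probes with a position in the files, 6 were placed on another chromosome than their gene, and 3 of these stood for the gene: HK2, TPI1 and ENO3. The others were further probes of PGK1 and LDHA.

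**Figure D3:**
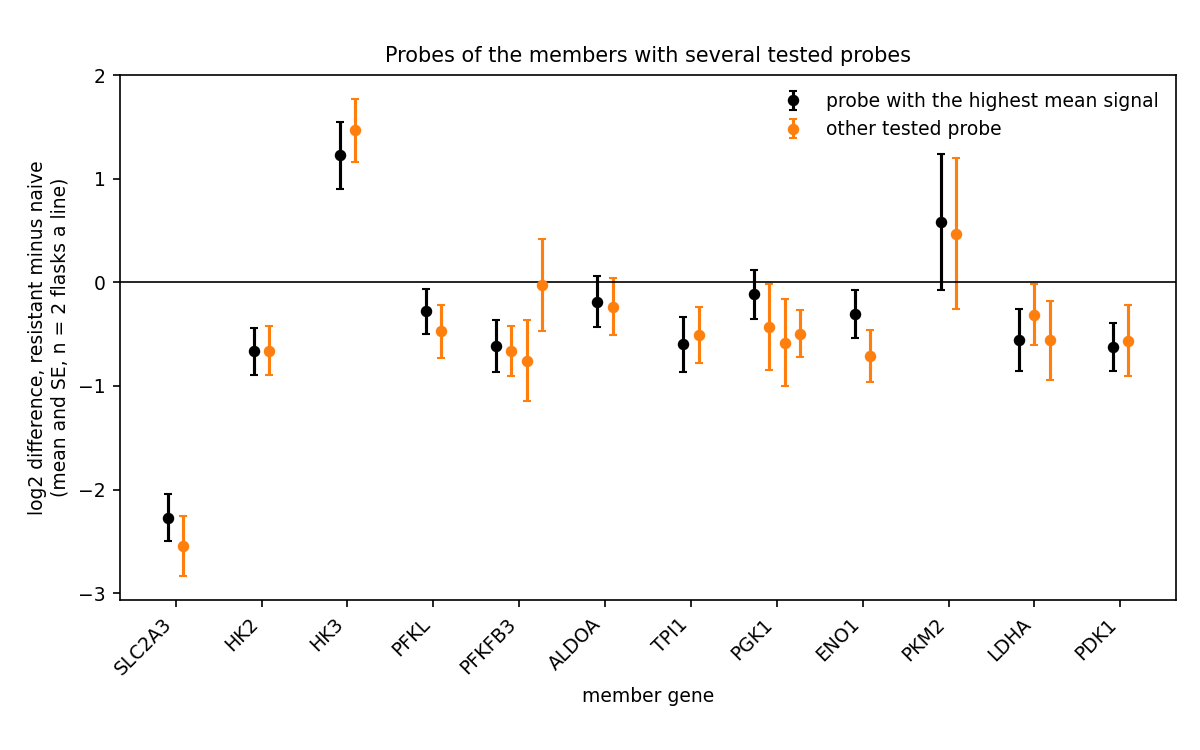
Log2 difference, resistant minus naive, for each tested probe of the 12 members with several tested probes (mean with SE as bars, 2 flasks a line; black, the probe with the highest mean signal). All tested probes of a gene lie on the same side of 0 for all 12 members, and only SLC2A3 is called, by both probes.

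Several probes were tested for 12 members, and for all 12 they lay on the same side of 0 and had the same call. Such probes were read on the same 4 arrays and are not further replicates.

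At the branch from pyruvate, lactate dehydrogenase showed no call. LDHA, whose subunit prevails where lactate is made, measured 5.89 and 5.20 in the naive and 4.95 and 5.03 in the resistant flasks. The difference was -0.56 ± 0.30 (SE, adjusted p = 0.390), and its probe was saturated on 1 naive array. The other LDHA probes gave -0.31 and -0.56. The file places them on chromosomes 10 and 9, whereas the gene is on chromosome 11. LDHB was saturated on all 4 arrays, between 5.86 and 6.23, and has no fold. SLC16A3, the MCT4 transporter that exports lactate, was saturated on both naive arrays at 5.97 and 6.18, while the resistant flasks read 5.96 and 6.30, and it too has no fold. SLC16A1, the MCT1 transporter, overlapped between the lines, with a difference of 0.03 ± 0.26 (adjusted p = 0.971).

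The 4 kinases of pyruvate dehydrogenase split into 1 called and 3 not called. PDK2, the most widely expressed isoform, measured -4.35 and -4.05 in the naive flasks and -5.62 and -5.45 in the resistant flasks. It fell 2.52-fold, a log2 difference of -1.34 ± 0.24 (SE, adjusted p = 0.0438), by a probe at chr17:48188262-48188321 on the plus strand. Of the 5 calls this one was the nearest to the threshold. With the replicate number as a block the adjusted p was 0.0609. The difference was -0.03 under normexp and -0.41 with bright local backgrounds reset (adjusted p = 0.387), and the call was lost under 9 of 17 alternatives.

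PDK1, the isoform best known as a HIF-1 target, stood at 1.08 and 0.82 against 0.35 and 0.31. Both resistant flasks were lower by both of its probes, with differences of -0.62 ± 0.23 (adjusted p = 0.234) and -0.56 ± 0.34 (adjusted p = 0.434). PDK3 was spread in the naive line, at -2.33 and -3.66, around -2.60 and -2.67 in the resistant line (difference 0.36 ± 0.46, adjusted p = 0.719). Without the first naive flask PDK3 was called at 1.02, and without the second it was -0.30 and not called. PDK4, induced by fasting, gave -0.35 ± 0.22 (adjusted p = 0.443). PDHA1, the catalytic subunit that these kinases phosphorylate, measured 4.55 and 3.69 against 4.40 and 4.70, with a difference of 0.43 ± 0.35 (adjusted p = 0.557).

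The 2 naive flasks were less alike than the 2 resistant flasks over these genes. The median absolute log2 difference between flasks was 0.37 in the naive and 0.09 in the resistant line for the members, and 0.35 and 0.16 for all tested genes. ENO2 (2.60), ENO3 (1.15), PKM2 (-2.01) and PDK3 (-1.32) differed at least 2-fold between the naive flasks, second minus first, and no member did so between the resistant flasks. Over all tested genes the shares that differed so much were 10.3% in the naive line and 1.70% in the resistant line. Of the 35 members, 22 were higher in the first naive flask than in the second, against 47.6% of all genes. All 5 called genes had a smaller difference between the naive flasks than between the lines. The threshold for a call favors such genes, so this is no further support for the calls.

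**Figure D4:**
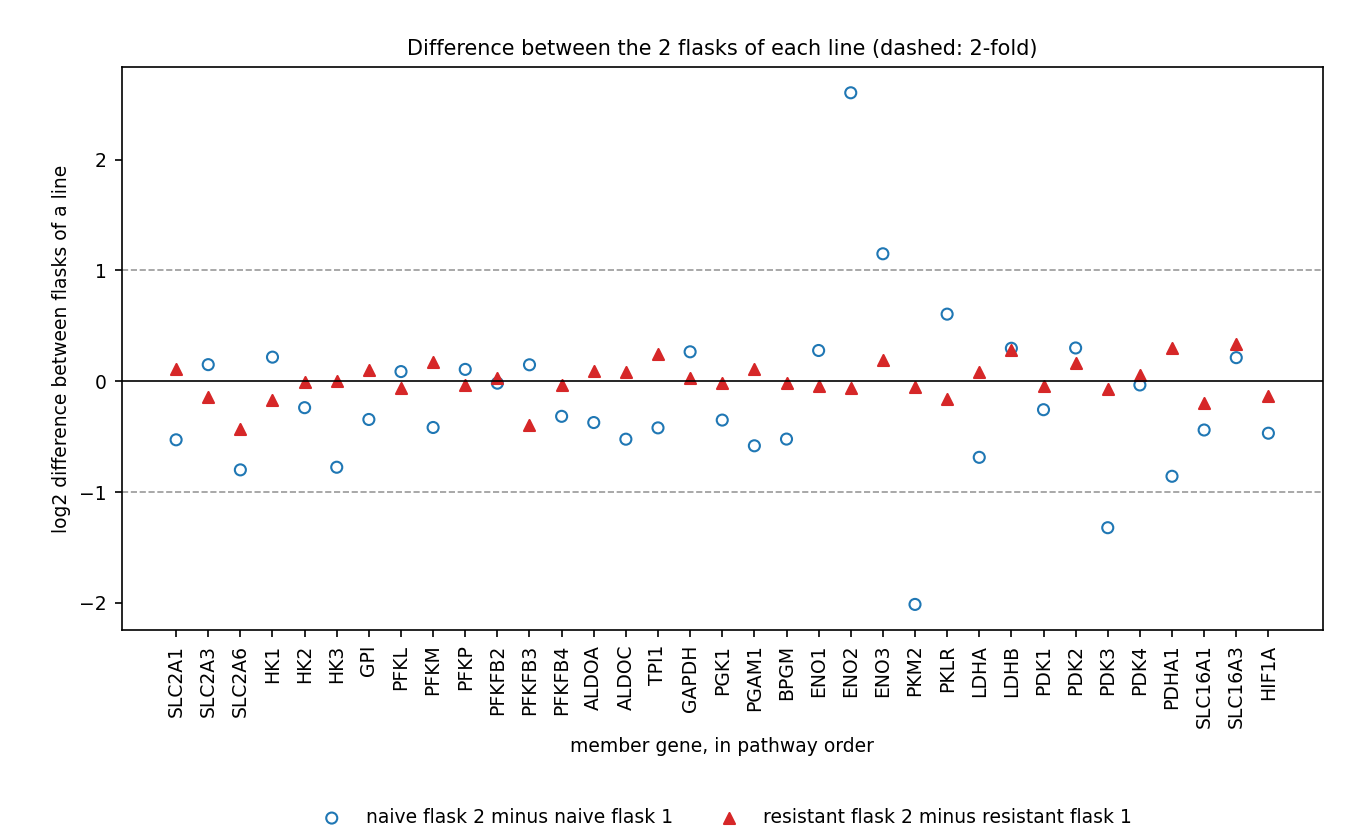
Log2 difference between the 2 flasks of each line for every member, second minus first (vertical axis; circles naive, triangles resistant; dashed lines mark 2-fold). ENO2 and ENO3 lie above the upper dashed line and PKM2 and PDK3 below the lower one in the naive line, while all resistant differences stay within 2-fold.

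HIF1A itself was not called. It was measured by a probe with 10 spots, at -0.07 and -0.54 in the naive and 0.17 and 0.04 in the resistant flasks. Both resistant flasks were higher, with a log2 difference of 0.41 ± 0.26 (SE, adjusted p = 0.457). ARNT, its partner in HIF-1, rose 2.37-fold, from -0.50 and -0.45 to 0.67 and 0.88, a difference of 1.25 ± 0.22 (adjusted p = 0.0446). A second ARNT probe gave 0.60 and was not called (adjusted p = 0.289). The call of the first was lost without either resistant flask, under normexp and by the methods' t-test. It was also lost with no filter on dim probes (adjusted p = 0.0842) and with signal over background asked on every array (adjusted p = 0.0534). With the replicate block (adjusted p = 0.0732) and with the probes of the gene averaged (adjusted p = 0.0506) it was lost as well. VHL, which marks HIF1A for degradation, and HIF1AN, which blocks its activity, gave 0.19 and -0.27 and were not called. The array holds 22 of the HIF target genes listed from outside glycolysis, of which 17 were tested. None was called by limma. Across all tested genes 6.29% were called, and 0 of 17 is near that share. The methods' t-test called no probe on the whole array after adjustment, so its lack of calls here adds nothing. Of the 17 targets, 5 had an unadjusted limma p under 0.05, as had 5383 of all 28221 tested probes. The median difference of the targets was 0.09. The largest differences among them were ADM, from 1.10 and -0.18 to -1.42 and -1.21 (difference -1.77, adjusted p = 0.114), and STC2, from -3.34 and 0.22 to 0.20 and -0.01 (difference 1.65, adjusted p = 0.481). Calls of these targets with a flask left out are given at the end, beside those over the whole array.

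The promoters of the members were searched for the core letters of the hypoxia response element, ACGTG and GCGTG, because many of these genes are known targets of HIF-1. RefSeq start sites of GRCh38.p14, taken with 250 bases before and 50 after the start, were on hand for 32 members, 18 with 1 entry and 14 with several, in all 63 entries. SLC2A3, PFKFB2 and SLC16A1 had no entry. On either strand ACGTG was in 34.9% of the member entries and in 21.4% of all 35116 promoters, and GCGTG was in 39.7% against 36.5%. At least 1 of both cores was in 61.9% against 48.4%. The E box CACGTG, which contains ACGTG on both strands, was in 8 of the 63 entries (12.7%) against 7.26%. Entries of a gene can overlap, so these shares are descriptions. LDHA, not called, and SLC2A6, called lower, are printed as the last 200 bases before a start that is the first or only one listed, with the cores in capitals. Both were chosen after their matches were seen. LDHA is at chr11:18394363-18394562 on the plus strand and SLC2A6 at chr9:133479100-133479299 on the minus strand.
LDHA: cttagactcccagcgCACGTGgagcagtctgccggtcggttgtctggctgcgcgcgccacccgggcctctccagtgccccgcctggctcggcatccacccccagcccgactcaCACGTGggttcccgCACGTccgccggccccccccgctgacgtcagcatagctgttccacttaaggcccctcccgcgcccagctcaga
SLC2A6: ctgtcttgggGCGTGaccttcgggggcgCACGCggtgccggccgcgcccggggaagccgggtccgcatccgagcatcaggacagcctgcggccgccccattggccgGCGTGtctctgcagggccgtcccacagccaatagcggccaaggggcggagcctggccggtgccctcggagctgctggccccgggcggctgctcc
The LDHA stretch holds the E box at 2 places and a further ACGTG, and the SLC2A6 stretch holds GCGTG at 3 places and no ACGTG. Of the other called genes, HK1 had a core in 2 of 7 entries, PFKM in 2 of 7 and PDK2 in 1 of 3. By entries, a core was in 6 of 18 (33.3%) for the 4 called genes with an entry, 14 of these entries being of HK1 and PFKM, and in 33 of 45 (73.3%) for the 28 members not called. By genes, 4 of 4 and 25 of 28 held a core in at least 1 entry. These shares were not tested, and a match is not a binding site.

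Other genes of glucose and pyruvate metabolism on the array numbered 43, of which 33 were tested and 2 were called, 1 in each direction. Across all tested genes the share called was 6.29%, about that of this list. The median difference of the list was -0.19 and 21 of 33 were below 0, against 49.7% of all tested genes. PC encodes pyruvate carboxylase, which feeds pyruvate into the citric acid cycle as oxaloacetate. It measured 1.04 and 0.62 in the naive and -1.50 and -1.22 in the resistant flasks, a 4.57-fold fall and a log2 difference of -2.19 ± 0.27 (SE, adjusted p = 0.0123). LDHD encodes the mitochondrial dehydrogenase of D-lactate. It rose 11.7-fold, from -4.07 and -5.82 to -1.54 and -1.26, a difference of 3.55 ± 0.59 (adjusted p = 0.0341). Both calls were lost when either resistant flask was left out, under normexp (-1.85 for PC and 1.91 for LDHD) and by the methods' t-test. LDHD also lost its call under quantile normalization (3.63, adjusted p = 0.0818) and with no filter on dim probes (adjusted p = 0.0828).

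FBP1, the fructose bisphosphatase of gluconeogenesis, was chosen after its values were seen. It measured -4.61 and -6.39 in the naive flasks, where it was well above background on 1 array, and -2.62 and -2.31 in the resistant flasks. Its log2 difference of 3.04 ± 0.60 fell short of the threshold (adjusted p = 0.0567). For the pentose phosphate pathway all 12 genes were tested and none was called by limma, with 0 at an unadjusted p under 0.05. Across all tested genes 6.29% were called, and 0 of 12 is near that share. An unadjusted limma p under 0.05 was found for 5383 of all 28221 tested probes. The methods' t-test, which called no probe on the array after adjustment, adds nothing here. The median difference was -0.04. The largest were RPE, with 1.13 and 0.50 against 0.20 and 0.24 (difference -0.60, adjusted p = 0.350), and RBKS, with -0.19 and -0.59 against -1.03 and -0.93 (difference -0.59, adjusted p = 0.288).

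**Figure D5:**
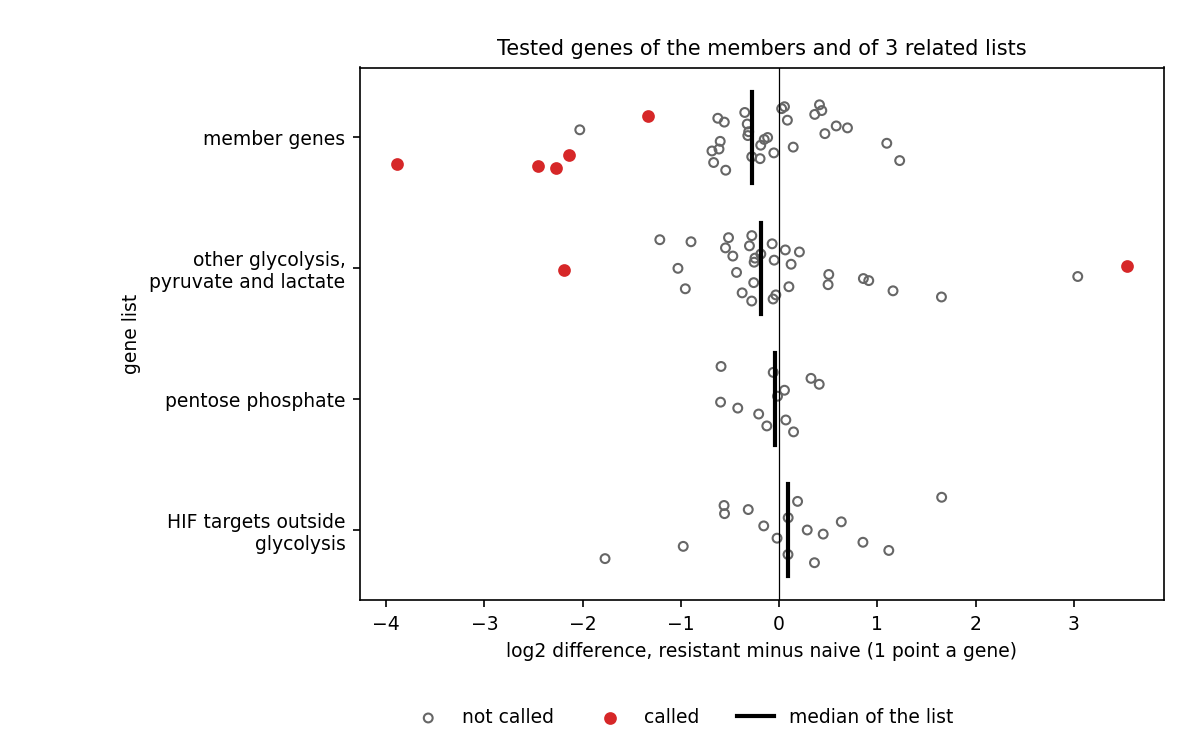
Log2 difference, resistant minus naive, of each tested gene (1 point a gene) among the members and 3 related lists, with called genes in red and the median of each list as a black bar. The medians are -0.28, -0.19, -0.04 and 0.09 from top to bottom, and outside the members PC at -2.19 and LDHD at 3.55 are called.

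The arrays were alike in quality, with 27922 to 28244 probes well above background and 457 to 565 saturated on each. Promyelocyte markers other than ELANE were well above background on all 4 arrays, with MPO saturated on all 4 and CTSG on both resistant arrays. ELANE was dim in the naive flasks, at -5.74 and -6.56, and well above background on 1 naive array. Of 7 such markers ELANE (2.49) and AZU1 (1.17) were called higher and ANPEP (-1.83) lower in the resistant line. All 3 calls were lost without either resistant flask, under normexp and by the methods' t-test. ELANE also lost its call under quantile normalization (adjusted p = 0.0537) and with bright local backgrounds reset. AZU1 also lost its call with no filter on dim probes, with signal over background asked on every array and with the replicate block. In multiples of the 75th percentile, the summed signal of the 5 markers saturated on no array was 28.3 and 22.6 in the naive flasks. It was 32.3 and 31.6 in the resistant flasks. Of the T cell markers CD3D was at least 169-fold lower in the resistant line. CD3E (-0.01) and CD2 (1.02, both resistant flasks above both naive flasks) were not called. The summed T cell signal was 1.70 and 2.33 against 0.109 and 0.141. Most of the naive sum was CD3D, so the fall of the sum is that of CD3D and not of all 3 markers. The macrophage marker MARCO was higher (1.87), with a sum of 0.0490 and 0.0556 against 0.152 and 0.179, while CD163 and MSR1 were never well above background. No B cell or erythroid marker was called, and the sums ran from 1.09 to 1.59 and from 0.0456 to 0.0947. MS4A1, HBB and the stromal markers COL1A1, COL1A2 and COL3A1 were at background on all arrays, and the stromal sum was 0.0272 to 0.0340. What part these markers have in the differences above was not tested.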

How the data were processed

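Cy3-labeled RNA, 1 flask per array, was read on 4 Agilent arrays. For each array the authors deposited the output of Feature Extraction 10.5.1.1, with a processed signal that is a background-subtracted intensity on a linear scale, and with mean signal and local background. The authors' own log2 values, shifted in GeneSpring by the 75th percentile, were deposited too. They correlated with the values used here at r of at least 0.99998 on each array.

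In R 4.3.3 outlier spots and controls were dropped, the processed signal was turned to log2, replicate spots were averaged and the array's 75th percentile was subtracted. Testing was limited to the 28221 probes that stood well above background in both flasks of either line. The fit used limma 3.58.1 (lmFit, eBayes), with Benjamini-Hochberg adjustment over all tested probes. A gene is given by its tested probe with the highest mean. Scripts were tested on simulated data. Arrays have no read depth, and their number limits the precision.

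Members were matched by the name on the array, and current symbols came through RefSeq accessions for 54 of the 56 member probes. Probe positions are those of the files (hg19), and exons were not annotated here. Where both arrays of a line were dim or saturated, a bound is given, taken from the means of the flasks. The members and lists were chosen with earlier results of these data known. All members are named. Of other lists the called genes are named or, where there were none, the largest 2 differences among genes well above background on all arrays. In all 19 alternatives were run, and 1 more was added after seeing the data (flasks left out with the filter remade). The slide could not be a block because there was only 1. No table columns went unassigned.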

Additional observations from a re-analysis of the deposited data

How the results depend on the processing

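With 2 flasks a line, the count of calls depends on each flask. Leaving out 1 flask at a time gave 728 to 4536 probes called instead of 1487, 1 to 10 members instead of 5, 0 to 9 other glycolysis genes instead of 2, and 0 to 5 HIF targets instead of 0. The lone flask is then assumed to vary like the others. The tested probes were held fixed. Remaking the filter on the remaining arrays, an alternative chosen after seeing the data, gave 4032 and 4767 probes without a naive flask, 881 and 971 without a resistant flask, 1 to 10 members, 0 to 10 other glycolysis genes and 0 to 6 HIF targets. Values of each member were not compared for this last alternative, for the one with no minimum fold or for the one that called a gene by any tested probe. Over the other alternatives, flasks left out included, the 33 members with a fold had 556 values. Of these, 510 kept direction and call, 26 lost a call, 7 gained one and 13 turned sign. None of the values that turned was called. All 26 lost calls were of the 5 called members, and most of the 510 kept values were of uncalled members that stayed uncalled.

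Normexp background correction shifted the median over all probes by 0.149 and left 0 probes, 0 members and 0 other glycolysis genes called (929, 2 and 3 at an unadjusted p under 0.05), with a member median of -0.16. With bright local backgrounds reset before normexp, 3 members and 1 HIF target were called. With scale normalization the shift over all probes was 0.103, and the median of the members was -0.088, with 4 other glycolysis genes called. Quantile normalization gave 1 other glycolysis gene, PC, with LDHD lost. With no filter on dim probes 3 members and 1 other glycolysis gene, PC, were called, and a filter that asked for signal over background on every array left 760 probes and 3 members. The methods' t-test gave 4138 probes at an unadjusted p under 0.05, and 0 probes, 0 members and 0 other glycolysis genes after adjustment. Averaging the probes of each gene gave 1 HIF target. The cause of these shifts was not tested.

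HK1 lost its call under normexp (-1.42) and the methods' t-test. SLC2A3 and PFKM lost theirs under these and without either resistant flask. SLC2A6 lost it under 7 of 16 alternatives and PDK2 under 9 of 17. Under normexp PKLR was 0.21 and PDK4 0.12. Scale normalization turned GPI (0.025), PFKP (0.12), ALDOA (0.034), GAPDH (0.072) and PGK1 (0.10). With flasks left out in turn PGK1 ran from -0.29 to 0.059, PFKFB4 from -0.015 to 0.30, PKM2 from -0.43 to 1.59, PDK3 from -0.30 to 1.02 and SLC16A1 from -0.19 to 0.25.

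With the replicate block 1375 probes and 4 members were called, PDK2 being the one lost (adjusted p = 0.0609), and no other call of a member was changed. The labels give only the numbers, and the deviations of same-numbered flasks correlated at 0.119 over 2 pairs, too few to show a pairing.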
